A study of Mus musculus with 12 samples.

Results

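The Ikzf1 locus was described through the regions of open chromatin that overlap the Ikzf1 gene body or the 20 kb on either side of it, on chromosome 11 between 11565006 and 11692929 of the mouse mm9 build. This window held 37 of the 118680 regions measured across the genome, and 31 of them overlapped the gene body itself, from 11585006 to 11672929. Ikzf1 encodes Ikaros, a zinc-finger DNA-binding protein of lymphocytes that recruits chromatin remodelling and histone deacetylase complexes to the genes it binds. Regulatory T cells (Treg) are CD4+ T cells that depend on the transcription factor Foxp3 and restrain the activity of other T cells. In ATAC-seq, the Tn5 transposase cuts DNA that is not wrapped in nucleosomes, so the number of fragments from a region reports how open its chromatin is; promoters and enhancers in use are typically open.

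Libraries were made from 100000 YFP+ Treg each, from spleen as the labels give it, sorted from mice of 2 genotypes. The cells were either used ex vivo, without stimulation, or after 4 hr on plate-bound anti-CD3 and anti-CD28. These antibodies engage the antigen receptor and the costimulatory receptor CD28. WT animals carried Foxp3-YFP-Cre, which expresses Cre and the YFP reporter from the Foxp3 gene, and Ikzf1-cko animals carried the same driver with homozygous floxed Ikzf1, so that Cre was present in both genotypes and Ikzf1 was deleted in cells that express Foxp3. The 4 groups, WT ex vivo, Ikzf1-cko ex vivo, WT stimulated and Ikzf1-cko stimulated, had 3 libraries each, which the methods call biological replicates. Per the study's methods, sorted Treg were split into a stimulated and an unstimulated portion, so libraries of the 2 states may come from the same animals. The age of the animals, the part of Ikzf1 that Cre removes and which ex vivo library goes with which stimulated one are not given in the sources used here. Fragments in regions totalled 4808916 to 15355521 per library, and every Ikzf1-cko library was deeper than every WT library, so that depth and genotype cannot be told apart.

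Signal over weak regions differed between the groups. Regions too weak to be tested had a median of 10.1 FPKM (the fragment count scaled by the length of the region in kb and by the library total) in WT stimulated libraries, against 5.93 FPKM in WT ex vivo, 4.48 in Ikzf1-cko ex vivo and 5.70 in Ikzf1-cko stimulated libraries, and the part of this difference in the results was not tested. Start-site regions of the 6 Treg markers Foxp3, Il2ra, Ctla4, Ikzf2, Tnfrsf18 and Cd4 had 6.70 to 50.5 FPKM over the 4 group means, and that of Foxp3 6.70 to 15.7 FPKM. Among markers of other cells, no region lay at the start of Cd79a or Ms4a1 (B cells), Lyz2 or Csf1r (myeloid cells), or Ncr1 (NK cells), and those found for Cd14, Klrb1c and Epor had 4.97 to 8.93 FPKM. The CD8 T cell markers were lower in Ikzf1-cko at both states, with Cd8a at 8.45 and 3.58 FPKM and Cd8b1 at 13.4 and 8.92 FPKM ex vivo in WT and Ikzf1-cko. After stimulation they had 9.47 and 5.81 FPKM and 11.8 and 9.52 FPKM, in the same order, and the part of CD8 T cells in the results below was not tested.

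Of the 37 regions, 3 lay upstream of the gene, 3 downstream, and 31 over the gene body, almost all of them in introns. Some also overlapped another annotated gene: OCR_16466 to OCR_16469 overlapped Gm11999, OCR_16475 and OCR_16476 Gm12000, and OCR_16502 Fignl1. OCR_16469, a region of 1769 bp, overlapped exon 1 of the reference transcript Ikzf1-201 and covered the start sites of 9 of the 12 annotated transcripts. OCR_16471, centred 4.19 kb past the start of Ikzf1-201, covered the start sites of Ikzf1-206 and Ikzf1-202, and OCR_16477, 13.2 kb from the start, was the nearest region to that of Ikzf1-207. No other region touched an exon, and none touched exon 8, the last and longest of Ikzf1-201. Intron 3, between 24.1 and 56.5 kb from the start, held 15 regions, among them OCR_16488 at 11625373 to 11626914, which had the highest mean accessibility of the locus in ex vivo WT Treg.

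4 stretches of the locus, read from the mm9 genome on the forward strand, are shown because the results turn on them: the 250 bases before the start of Ikzf1-002 within OCR_16469, and the central 300 bases of the region with the highest signal, of the one that was higher in Ikzf1-cko in both states, and of the one that was lower in Ikzf1-cko ex vivo. Capitals mark matches to GGGAA, the core that Ikaros recognises, or to TGTTTAC, a forkhead-type sequence and the reverse complement of either (TTCCC for the first).
OCR_16469, upstream of Ikzf1-002, chr11:11585678-11585927: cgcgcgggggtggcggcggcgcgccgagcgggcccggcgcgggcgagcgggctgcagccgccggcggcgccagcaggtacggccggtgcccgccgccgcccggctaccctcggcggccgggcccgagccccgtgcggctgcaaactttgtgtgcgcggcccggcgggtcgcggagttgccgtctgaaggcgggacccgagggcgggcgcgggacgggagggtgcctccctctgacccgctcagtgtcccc
OCR_16480, intron 3, chr11:11610207-11610506: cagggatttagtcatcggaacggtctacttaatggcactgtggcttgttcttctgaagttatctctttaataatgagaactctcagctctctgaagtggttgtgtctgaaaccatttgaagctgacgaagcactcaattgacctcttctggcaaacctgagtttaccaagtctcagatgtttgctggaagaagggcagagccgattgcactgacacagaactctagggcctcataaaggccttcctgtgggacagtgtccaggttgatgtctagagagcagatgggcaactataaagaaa
OCR_16488, intron 3, chr11:11625994-11626293: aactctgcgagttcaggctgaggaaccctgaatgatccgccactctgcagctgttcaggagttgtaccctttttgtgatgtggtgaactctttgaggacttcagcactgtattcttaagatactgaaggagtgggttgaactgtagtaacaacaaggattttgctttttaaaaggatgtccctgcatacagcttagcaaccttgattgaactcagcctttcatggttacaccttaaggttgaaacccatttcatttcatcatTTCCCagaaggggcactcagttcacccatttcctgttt
OCR_16496, intron 4, chr11:11651003-11651302: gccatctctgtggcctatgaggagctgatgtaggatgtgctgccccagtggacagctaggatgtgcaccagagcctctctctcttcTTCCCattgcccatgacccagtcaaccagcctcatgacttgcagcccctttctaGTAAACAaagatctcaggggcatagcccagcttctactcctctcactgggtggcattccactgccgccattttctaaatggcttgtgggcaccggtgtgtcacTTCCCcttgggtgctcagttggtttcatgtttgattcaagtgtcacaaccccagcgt

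The stretch before the start site was 82% G and C, against 45.7%, 43.7% and 53.7% for the central stretches of OCR_16480, OCR_16488 and OCR_16496. Besides the GGGAA core and the forkhead-type sequence, both strands were searched for TGAGTCA, the site of AP-1 (the factor of Fos and Jun). The search also covered TGTGGTT, a site of RUNX factors. The last of the 5 sequences was AGGAAGT, a site of ETS factors. The stretch before the start site held none of them. OCR_16480 held none of them in its central 300 bases either, OCR_16488 held 1 GGGAA there, and OCR_16496 held 2 GGGAA and 1 TGTTTAC. Over their whole lengths, OCR_16469, OCR_16480, OCR_16488 and OCR_16496 held 7, 2, 5 and 2 GGGAA, in this order. Matches in the central 300 bases were found for GGGAA in 24 of the 37 regions (64.9%, against 59% of the 118480 regions on placed chromosomes), for TGAGTCA in 1 (2.7% against 11%), for TGTGGTT in 3 (8.11% against 9.73%), for AGGAAGT in 4 (10.8% against 13.1%) and for TGTTTAC in 1 (2.7% against 3.69%). The single TGTTTAC was that of OCR_16496.

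The region of highest signal was the same in both ex vivo genotypes and lay in intron 3, not at a start site. In ex vivo WT Treg, the 3 regions of highest signal were OCR_16488 (45.8 ± 2.32 FPKM, mean ± SD, n = 3), OCR_16499 in intron 7 (33.8 ± 2.93 FPKM) and OCR_16491 in intron 3 (27.3 ± 5.03 FPKM). The start-site region OCR_16469 had 19.2 ± 1.37 FPKM in the same libraries. The mean of OCR_16488 exceeded that of 94.5% of all tested regions in WT ex vivo and of 94% in Ikzf1-cko ex vivo, but of 81.8% in WT stimulated and 88.5% in Ikzf1-cko stimulated libraries. The corresponding shares for OCR_16469 were 76%, 75.8%, 77.1% and 80.7%.

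**Figure D1:**
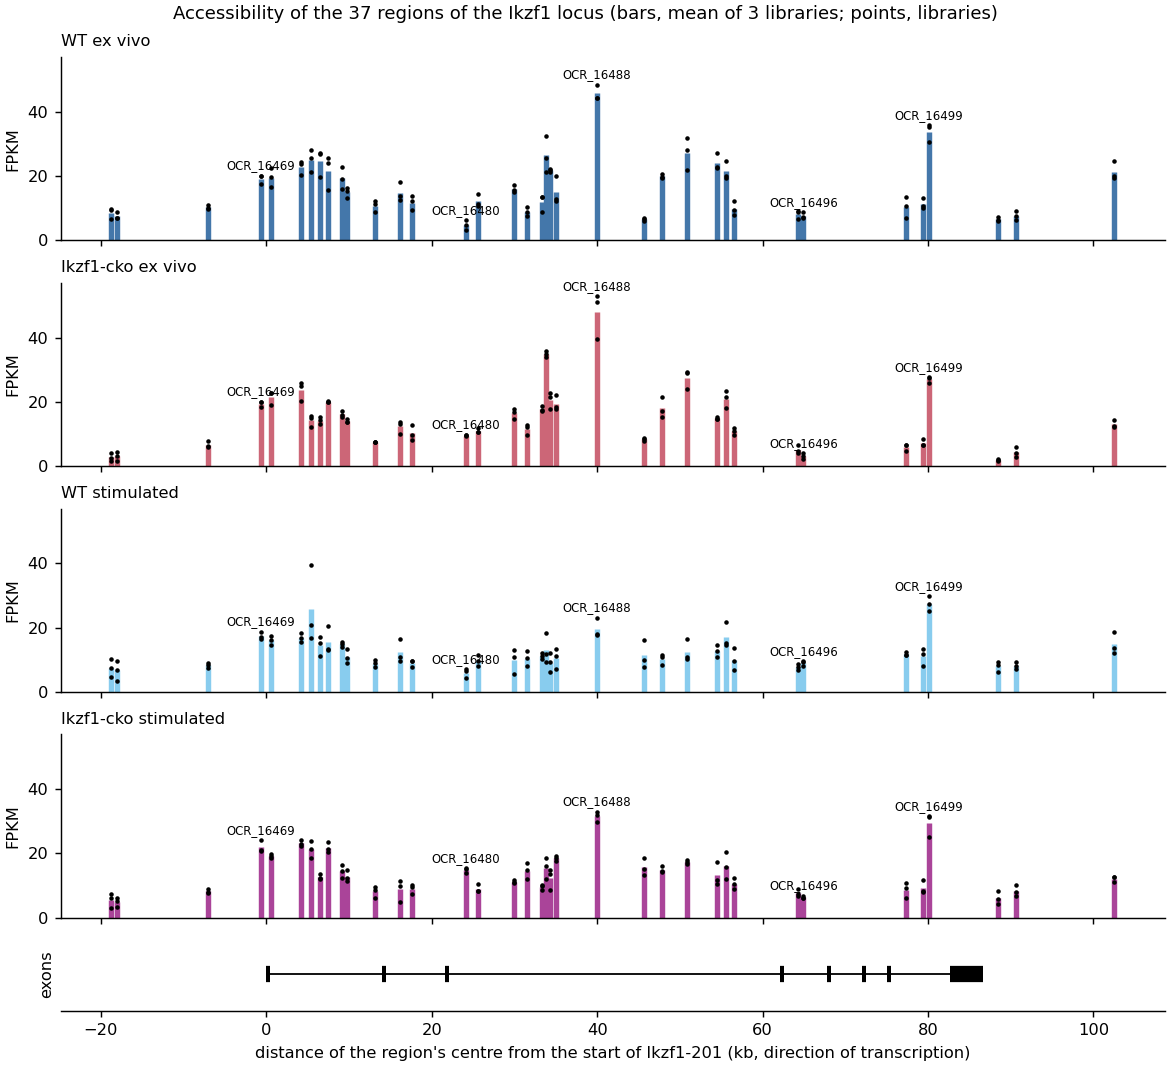
Accessibility (FPKM) of the 37 regions by the distance of their centre from the start of Ikzf1-201 (kb), 1 panel per group, with the exons of Ikzf1-201 below; bars are means of 3 libraries and points are libraries. OCR_16488, the tallest bar ex vivo, stood at 45.8 and 47.8 FPKM ex vivo in WT and Ikzf1-cko, and at 19.6 and 31.6 FPKM after stimulation.

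The first comparison asked how the signal at Ikzf1 itself differed between Ikzf1-cko and WT Treg ex vivo. Cre removes part of this gene in Ikzf1-cko, and which part is not given. At any one region of the gene, fewer fragments in Ikzf1-cko thus cannot be told apart from missing DNA. 30 of the 37 regions had enough signal to be tested, set as 3 or more libraries reaching 3.6 CPM (fragment counts scaled to the library total). A region was called when its false discovery rate (FDR) was under 0.05 over the 69957 regions tested in the genome and its log2 fold change was over 1 in either direction, by edgeR's quasi-likelihood test. On these terms 1 of the 30 regions was higher in Ikzf1-cko (0.588% of all tested regions were) and 1 was lower (4.04% were). By FDR alone, 1 was higher (8.78% of all) and 8 were lower (12.7% of all), against 3 and 6 under TMM scaling and 2 and 5 under a loess normalization of each library against mean abundance. The median log2 fold change was -0.08 over the 30 regions and -0.13 over all tested regions.

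The region that was higher was OCR_16480 in intron 3, 24.1 kb from the start. It had 6.22, 3.26 and 4.83 FPKM in the 3 WT ex vivo libraries and 9.22, 9.504 and 9.73 FPKM in Ikzf1-cko. Each WT ex vivo library held 16 to 27 fragments there, against 74 to 92 in Ikzf1-cko ex vivo. The WT mean of 4.77 FPKM was below the WT ex vivo median of regions too weak to be tested (5.93 FPKM). All Ikzf1-cko libraries lay above all WT libraries, and the log2 fold change was 1.03 ± 0.21 (SE), with an adjusted p of 0.000623 in edgeR. Without replicate 2 of WT ex vivo, the lowest library, the fold change was 0.81 and fell short of the fold threshold, with an adjusted p of 0.0168.

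The region that was lower was OCR_16496 in intron 4. It had 8.78, 6.80 and 7.30 FPKM in WT ex vivo and 3.96, 2.07 and 3.25 FPKM in Ikzf1-cko ex vivo libraries. Each Ikzf1-cko ex vivo library held 15 to 32 fragments there. Their mean of 3.10 FPKM was below that group's median of regions too weak to be tested (4.48 FPKM). Only WT libraries reached 3.6 CPM at OCR_16496, so it entered the test through the genotype where it was high. With no filter it was at -1.27 (adjusted p = 0.00142 in edgeR). No Ikzf1-cko library reached a WT library, and the log2 fold change was -1.27 ± 0.28, with an adjusted p of 0.00139 in edgeR. Under the loess normalization it was -0.95, short of the fold threshold, with an adjusted p of 0.0125. Its close neighbour OCR_16495, also in intron 4, passed the FDR alone at -0.67 ± 0.21 (adjusted p = 0.0197 in edgeR), and lost it under TMM (0.0521), loess (0.0849) and DESeq2 (0.14).

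The other 6 regions that were lower by FDR alone were OCR_16468, OCR_16472, OCR_16473, OCR_16477, OCR_16492 and OCR_16502, at log2 fold changes of -0.83 to -0.53. Apart from OCR_16477, the region nearest the start of Ikzf1-207, they were chosen for naming after their values were seen. By FDR, OCR_16477 lost its call under TMM (adjusted p = 0.0969), loess (0.13), DESeq2 (0.224) and limma (0.0702). OCR_16472 lost it under loess (adjusted p = 0.0578) and DESeq2 (0.0829), and OCR_16468 and OCR_16492 lost it under DESeq2 (0.0665 and 0.0677). The 6 were spread from upstream of the gene through introns 1 and 3 to its downstream side. OCR_16477 had 8.80, 12.1 and 11.2 FPKM in WT and 7.45, 7.53 and 7.56 FPKM in Ikzf1-cko ex vivo libraries. OCR_16502, which overlaps the neighbouring gene Fignl1, had 24.7, 19.5 and 19.9 FPKM in WT and 12.5, 12.3 and 14.2 FPKM in Ikzf1-cko ex vivo libraries.

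The start-site regions were not called ex vivo. OCR_16469 had 17.6, 19.9 and 20.1 FPKM in WT and 20.03, 19.8 and 18.2 FPKM in Ikzf1-cko ex vivo libraries, which overlapped. Its log2 fold change was 0.00, with a 95% interval of -0.18 to 0.19. OCR_16488 was likewise not called, at 44.4, 44.4 and 48.4 FPKM in WT and 51.2, 52.8 and 39.5 FPKM in Ikzf1-cko, a log2 fold change of 0.07 with a 95% interval of -0.12 to 0.25. OCR_16499 had 30.5, 35.3 and 35.8 FPKM in WT and 27.6, 27.5 and 25.9 FPKM in Ikzf1-cko ex vivo libraries, and it did not pass the FDR threshold although its groups did not overlap.

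**Figure D2:**
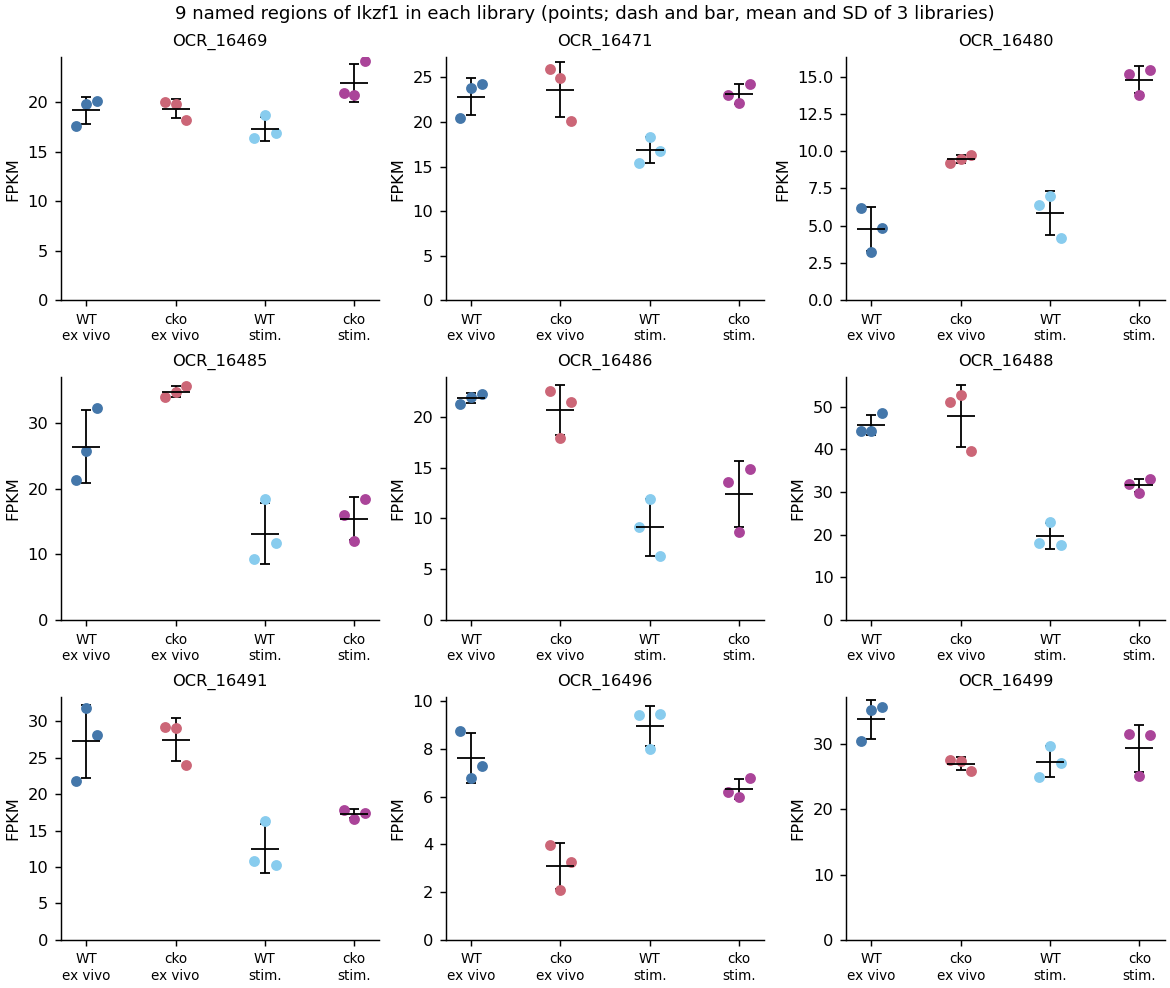
Accessibility (FPKM, each axis from 0) of 9 named regions in each of the 12 libraries by group; points are libraries, dashes are means and bars are SD of 3 libraries. OCR_16480 was at 9.22 FPKM or above in every Ikzf1-cko library and at 7.03 FPKM or below in every WT library.

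7 regions were too weak to be tested and are given by their levels. Of these, 6 had all 3 Ikzf1-cko ex vivo libraries below all 3 WT ex vivo libraries, and 0 had them above. Over all 48523 regions too weak to be tested, 22.8% had them below and 3.11% above. OCR_16500, downstream of the gene, was chosen for naming after its values were seen. It had 7.11, 6.02 and 6.28 FPKM in WT and 2.04, 1.45 and 1.94 FPKM in Ikzf1-cko ex vivo libraries. Each Ikzf1-cko ex vivo library held 7 to 11 fragments at this region. It had 9.40, 6.23 and 8.27 FPKM in WT stimulated and 8.32, 5.78 and 4.21 FPKM in Ikzf1-cko stimulated libraries. The Ikzf1-cko ex vivo libraries were the lowest of the 4 groups at OCR_16500, at a mean of 1.81 FPKM against 6.47 FPKM in WT ex vivo. Its stimulated groups overlapped.

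Stimulation of WT Treg lowered accessibility in intron 3. 4 of the 30 tested regions were lower after stimulation (2.32% of all tested regions were), and 0 were higher, although 17.7% of all tested regions were. By FDR alone, 11 were lower (20.7% of all) and 1 was higher (26.9% of all). The median log2 fold change was -0.35 over the 30 regions and 0.04 over all tested regions, and 25 of the 30 had a value below 0, against 47.3% of all. These genome-wide values depended on the filter and the normalization. With 3.6 CPM required in all 12 libraries, 150 of 34257 regions were higher and 1089 were lower. The median was then -0.19 over all and -0.41 over the 20 left at the locus. Under the loess normalization 2850 of 69957 were higher and 2115 lower, with medians of -0.01 over all and -0.315 over the 30.

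The called regions OCR_16485, OCR_16486, OCR_16488 and OCR_16491 all lay in intron 3. OCR_16488 had 44.4, 44.4 and 48.4 FPKM ex vivo and 18.0, 23.1 and 17.7 FPKM after stimulation in WT. The highest stimulated library was well below the lowest ex vivo library, and the log2 fold change was -1.23 ± 0.11, with an adjusted p of 5.04e-10 in edgeR. OCR_16491, 50.9 kb from the start, had 21.9, 31.8 and 28.1 FPKM ex vivo and 10.9, 16.4 and 10.3 FPKM after stimulation in WT. Its log2 fold change was -1.14 ± 0.17, with an adjusted p of 5.08e-06 in edgeR, and the groups did not overlap.

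OCR_16485 and OCR_16486 lay side by side, 33.8 and 34.2 kb from the start. OCR_16485 had 21.3, 25.7 and 32.3 FPKM ex vivo and 9.35, 18.4 and 11.8 FPKM after stimulation in WT. The stimulated replicate 2 was its highest stimulated library, and the log2 fold change was -1.04 ± 0.21, with an adjusted p of 0.000255 in edgeR. OCR_16486 had 21.3, 22.0 and 22.2 FPKM ex vivo and 9.14, 11.9 and 6.27 FPKM after stimulation in WT. Its groups did not overlap and it changed by -1.24 ± 0.31, with an adjusted p of 0.00162 in edgeR. OCR_16486 held 6 to 13 fragments per WT stimulated library. Only ex vivo libraries reached 3.6 CPM there, so it entered the test through the state where it was high. With no filter it was at -1.24 (adjusted p = 0.00154 in edgeR). Under limma it was at -0.94, short of the fold threshold, and it did not pass a filter of 3.6 CPM in all 12 libraries. OCR_16488 and OCR_16491 were called under both of these settings. The fold of OCR_16485 was just past the threshold: it was -0.86 without replicate 3 of WT ex vivo, and -0.82 and -0.98 without replicates 1 and 3 of WT stimulated.

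Under the loess normalization, which takes out differences between libraries that depend on abundance, 1 of the 4 kept both thresholds, OCR_16486 at -1.72. There, OCR_16485, OCR_16488 and OCR_16491 were at -0.89, -0.97 and -0.92, below the fold threshold, with adjusted p of 0.0016, 6.58e-09 and 5.77e-05. The one region that rose by FDR alone in WT was OCR_16489, which lies among them in intron 3, 45.6 kb from the start, and was chosen for naming after its values were seen. It had 6.85, 6.68 and 5.87 FPKM ex vivo and 7.85, 16.3 and 9.87 FPKM after stimulation in WT. Only stimulated libraries reached 3.6 CPM at OCR_16489, so it entered the test through the state where it was high. Its log2 fold change was 0.81 ± 0.30 (adjusted p = 0.0273 in edgeR), and it was 0.45 (adjusted p = 0.291) without replicate 2 of WT stimulated and 0.50 (adjusted p = 0.224) under loess.

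The start-site regions of stimulated WT Treg differed less. OCR_16469 had 16.4, 18.7 and 16.9 FPKM after stimulation, within a log2 fold change of -0.16 and a 95% interval of -0.37 to 0.05. OCR_16471 had 20.5, 23.9 and 24.3 FPKM ex vivo and 15.5, 18.3 and 16.8 FPKM after stimulation, and fell by FDR alone, at -0.45 ± 0.13 (adjusted p = 0.00427 in edgeR). All its stimulated libraries lay below all its ex vivo libraries, and under the loess normalization it was at -0.22 (adjusted p = 0.157).

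**Figure D3:**
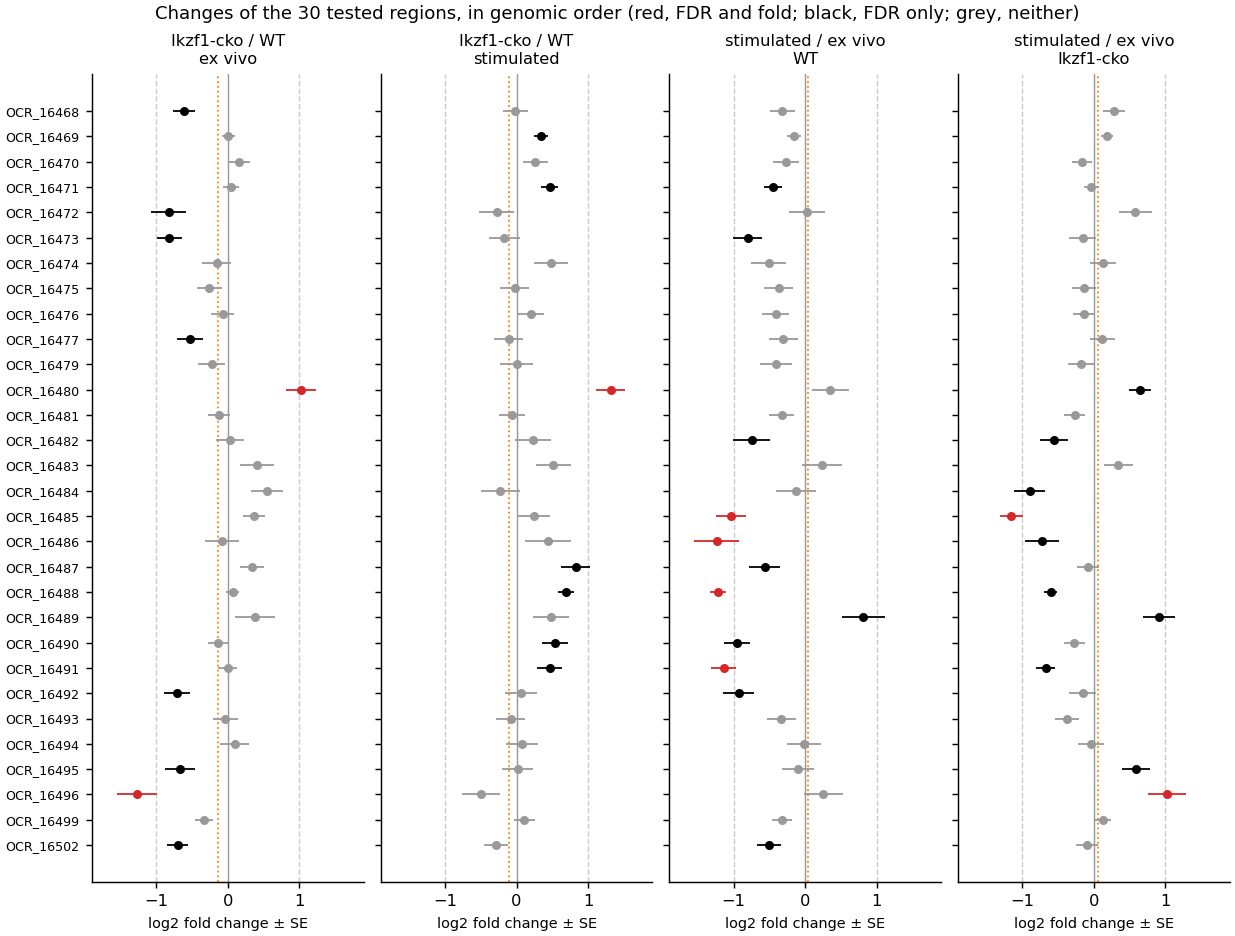
Log2 fold changes (x axis, ± SE) of the 30 tested regions in genomic order (y axis) in 4 comparisons; red points pass the FDR and fold thresholds, black points the FDR alone, grey points neither, the dotted line is the median of all tested regions and the dashed lines are at -1 and 1. The regions OCR_16485 to OCR_16491 of intron 3 lie mostly below 0 in both stimulation panels, with OCR_16489 above 0 in both.

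In Ikzf1-cko Treg, the response to stimulation had the same direction as in WT at OCR_16485, OCR_16486, OCR_16488 and OCR_16491, and 1 of the 4 passed the fold threshold. On both thresholds 1 of the 30 regions was lower (0.632% of all tested regions were) and 1 was higher (3.02% were), against 1 and 0 under TMM scaling and 2 and 0 under the loess normalization. By FDR alone, 6 were lower (11.5% of all) and 4 were higher (12% of all), and the median log2 fold change was -0.12 over the 30 regions and 0.06 over all.

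The region that was lower was OCR_16485. It had 33.9, 34.8 and 35.7 FPKM ex vivo and 15.99, 12 and 18.4 FPKM after stimulation in Ikzf1-cko. The groups were far apart, and the log2 fold change was -1.16 ± 0.16, with an adjusted p of 3.66e-06 in edgeR. OCR_16488 had 51.2, 52.8 and 39.5 FPKM ex vivo and 31.9, 29.9 and 33.0 FPKM after stimulation in Ikzf1-cko. It fell by FDR alone, at -0.60 ± 0.09 (adjusted p = 9.61e-06 in edgeR), as did OCR_16491 at -0.67 ± 0.13 (adjusted p = 0.000398 in edgeR) and OCR_16486 at -0.72 ± 0.24 (adjusted p = 0.0271 in edgeR). OCR_16486 lost the FDR threshold under DESeq2 (adjusted p = 0.0897) and limma (0.058).

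The region that was higher was OCR_16496 in intron 4, the one that was lower in Ikzf1-cko ex vivo. No Ikzf1-cko library of either state reached 3.6 CPM there, so that it was tested only through WT libraries. It had 3.96, 2.07 and 3.25 FPKM ex vivo and 6.19, 5.998 and 6.80 FPKM after stimulation in Ikzf1-cko, and the groups did not overlap. Its log2 fold change was 1.02 ± 0.27, with an adjusted p of 0.00594 in edgeR. The fold was 0.80 without replicate 2 of Ikzf1-cko ex vivo and 0.96 without replicate 3 of Ikzf1-cko stimulated, both short of the threshold. In WT it had 8.78, 6.80 and 7.30 FPKM ex vivo and 9.43, 7.99 and 9.49 FPKM after stimulation, which overlapped. The interaction at OCR_16496 was 0.77 ± 0.38 (adjusted p = 0.21 in edgeR), so its responses were not shown to differ between the genotypes. Its lower call ex vivo and its higher call after stimulation share the Ikzf1-cko ex vivo libraries and are not independent. OCR_16480 rose with stimulation in Ikzf1-cko by FDR alone, at 0.64 ± 0.16 (adjusted p = 0.00301 in edgeR), and OCR_16489 did so at 0.91 ± 0.22 (adjusted p = 0.00326 in edgeR).

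Stimulated Ikzf1-cko and WT Treg differed at OCR_16480 on both thresholds. It was the 1 of 30 regions that was higher (1.16% of all tested regions were), and 0 were lower, although 20.2% of all tested regions were. The last share depended on the filter and the normalization. With 3.6 CPM required in all 12 libraries, 358 of 34257 regions were lower, and under the loess normalization 2992 of 69957 were. OCR_16480 had 6.36, 7.03 and 4.16 FPKM in WT stimulated and 15.2, 13.8 and 15.4 FPKM in Ikzf1-cko stimulated libraries. Each WT stimulated library held 13 to 25 fragments there, against 88 to 115 in Ikzf1-cko stimulated. The WT mean of 5.85 FPKM was below the WT stimulated median of regions too weak to be tested (10.1 FPKM). The groups did not overlap, and the log2 fold change was 1.32 ± 0.20, with an adjusted p of 6.54e-06 in edgeR. The ex vivo and stimulated comparisons share no library, but the sorted cells were split between the states, so they may share animals.

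By FDR alone, 7 of the 30 regions were higher in stimulated Ikzf1-cko (20.4% of all tested regions were) and 0 were lower (30.7% of all were). OCR_16487, OCR_16488, OCR_16490 and OCR_16491, which lie in intron 3, were 4 of the 7, at log2 fold changes of 0.46 to 0.83. OCR_16488 was at 0.69 ± 0.11 (adjusted p = 1.04e-05 in edgeR). The start-site regions OCR_16469 and OCR_16471 were at 0.35 ± 0.10 (adjusted p = 0.00341 in edgeR) and 0.46 ± 0.12 (adjusted p = 0.0023 in edgeR). OCR_16469 had 16.4, 18.7 and 16.9 FPKM in WT stimulated and 21.0, 20.8 and 24.2 FPKM in Ikzf1-cko stimulated libraries. The median was 0.16 over the 30 regions and -0.11 over all tested regions. With 3.6 CPM required in all 12 libraries, it was 0.09 over the 20 regions left at the locus and 0.18 over all. Under the loess normalization OCR_16488 was at 0.32 (adjusted p = 0.0145), while OCR_16469 was at 0.02 (adjusted p = 0.879) and OCR_16471 at 0.20 (adjusted p = 0.192). OCR_16491 was at 0.30 there (adjusted p = 0.178), so that these 3 lost the FDR threshold under loess.

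The difference of the responses between the genotypes was tested directly with the interaction of genotype and stimulation. 0 of the 30 regions passed both thresholds in edgeR (0.579% of all tested regions had a more positive response in Ikzf1-cko and 1.4% a more negative one), and 12 had an unadjusted p under 0.05 (40%, against 24.5% of all tested regions). DESeq2 and limma also called 0. By FDR alone, OCR_16488 was the 1 region with a more positive response in Ikzf1-cko (5.66% of all), and 0 had a more negative one (1.82% of all). Its response was -1.23 in WT and -0.60 in Ikzf1-cko, an interaction of 0.62 ± 0.14 on the log2 scale (adjusted p = 0.00663 in edgeR), so that accessibility fell in both genotypes and by less in Ikzf1-cko. Under the loess normalization the interaction was 0.39, with an adjusted p of 0.0685. The median interaction over the 30 regions was 0.42, against 0.00 over all tested regions, and 26 of the 30 were above 0. With 3.6 CPM required in all 12 libraries, it was 0.42 over the 20 regions left at the locus and 0.15 over all.

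The stimulation responses of WT and Ikzf1-cko, which share no library but may share animals, had a Pearson correlation of 0.782 over the 30 regions and 0.668 over all tested regions, and 24 of the 30 had the same sign. The genotype effects ex vivo and after stimulation, likewise without a shared library, had a correlation of 0.739 over the 30 regions and 0.687 over all. These are descriptions over regions, which share libraries and depth and are not independent.

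Ratios between regions of the same library do not depend on the scaling between libraries. OCR_16488 had 2.52, 2.24 and 2.41 times the FPKM of the start-site region OCR_16469 in WT ex vivo libraries and 1.10, 1.24 and 1.04 times in WT stimulated libraries. In Ikzf1-cko, it had 2.56, 2.67 and 2.17 times ex vivo and 1.52, 1.44 and 1.37 times after stimulation. Both stimulated groups thus lay below both ex vivo groups, and WT stimulated below Ikzf1-cko stimulated. For OCR_16480 the ratio was 0.164 to 0.353 in WT ex vivo and 0.46 to 0.534 in Ikzf1-cko ex vivo libraries, and 0.246 to 0.389 and 0.639 to 0.724 in the stimulated groups. For OCR_16496 it was 0.343 to 0.498 in WT ex vivo and 0.105 to 0.198 in Ikzf1-cko ex vivo libraries, and 0.427 to 0.577 and 0.281 to 0.295 after stimulation. These ratios were chosen after seeing the levels and carry no test. The scaling drops out of them, but the difference in signal over weak regions does not. That signal was highest in WT stimulated libraries (a median of 10.1 FPKM), and its part in the ratios was not tested.

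**Figure D4:**
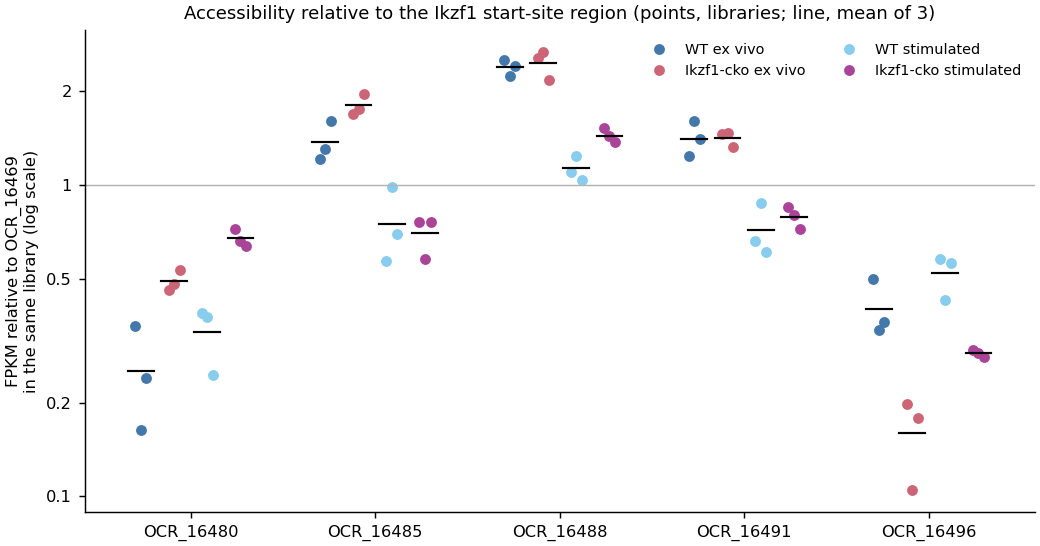
FPKM of 5 regions divided by that of the start-site region OCR_16469 in the same library (log y axis), by region and group; points are libraries and lines are means of 3. The ratio of OCR_16488 fell from 2.39 to 1.13 with stimulation in WT and from 2.46 to 1.44 in Ikzf1-cko, as group means.

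Summed over intron 3 from 30 to 52 kb past the start, which holds 9 regions from OCR_16483 to OCR_16491, the libraries had 121.8, 129.4 and 141.6 CPM in WT ex vivo. They had 151.9, 149.6 and 124.5 in Ikzf1-cko ex vivo, 58.4, 82.8 and 60.7 in WT stimulated, and 100.4, 93.3 and 106.8 in Ikzf1-cko stimulated. The ex vivo groups overlapped and lay above the stimulated groups, of which WT was the lower. Replicate 2 was the highest of the WT stimulated libraries, here and over all 37 regions, where it had 280.4 CPM against 223.4 and 234.4. The window of 30 to 52 kb was not set in advance. It holds all 4 regions called after stimulation of WT and leaves out other regions of intron 3, OCR_16480 among them. Its sums therefore restate those called regions and carry no test.

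Other genes of the family and its partners were counted by the same rule, over their gene bodies and 20 kb on either side. The shares of all tested regions called higher and lower were 0.588% and 4.04% for Ikzf1-cko vs WT ex vivo. For stimulation they were 17.7% and 2.32% in WT and 3.02% and 0.632% in Ikzf1-cko. They were 1.16% and 20.2% for stimulated Ikzf1-cko vs WT, and 0.579% and 1.4% for the interaction. The shares for stimulation of WT and for stimulated Ikzf1-cko vs WT depended on the filter and the normalization, as given above. The Ikaros family genes Ikzf2, Ikzf3, Ikzf4 and Ikzf5, which encode the related proteins Helios, Aiolos, Eos and Pegasus, had 75 tested regions. Of these, 0 were higher and 1 was lower in Ikzf1-cko ex vivo, 0 were higher and 3 lower after stimulation of WT, and 2 were higher and 0 lower in stimulated Ikzf1-cko relative to WT. After stimulation of Ikzf1-cko, 0 were higher and 1 was lower, and the interaction was called positive at 1 and negative at 0. The median log2 fold change was 0.13 ex vivo between genotypes and -0.18 for stimulation of WT. The 16 genes of chromatin partners, such as the remodeller Chd4, the histone deacetylases Hdac1 and Hdac2 and the co-repressor Sin3a, had 102 tested regions. Of these, 1 was higher and 2 were lower in Ikzf1-cko ex vivo, 2 were higher and 0 lower after stimulation of WT, and 2 were higher and 2 lower in stimulated Ikzf1-cko. After stimulation of Ikzf1-cko, 2 were higher and 0 lower, and the interaction was called positive at 2 and negative at 0. The median was 0.06 ex vivo between genotypes and 0.12 for stimulation of WT. The genes whose start-site region followed that of Ikzf1 most closely over the 12 libraries, on log2(CPM + 1), were Plekhf2 (Pearson r = 0.967), Gpr19 (r = 0.961), Chmp2a (r = 0.944), Ero1lb (r = 0.939) and Mettl10 (r = 0.938), out of 11794 compared. These libraries fall into 4 groups that differ in depth and background, and 51 genes had r above 0.9.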

How the data were processed

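ATAC-seq was measured in 12 libraries. The authors aligned reads (Bowtie2), called peaks (MACS2), merged them into regions and deposited, per region and library, the fragment count and the FPKM, which equals the count scaled by region length and library total; mm9 is the build in the labels. A table of the authors' own fold changes and p-values was not used, and the authors' background normalization was not repeated.

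Groups came from the labels. Regions reaching 3.6 CPM in 3 or more libraries were kept and their counts fitted with edgeR 4.0.16 (glmQLFit, glmQLFTest) under R 4.3.3, over all 12 libraries with 1 coefficient per group, scaled by library totals and adjusted by Benjamini-Hochberg over 69957 regions. The procedure was tested on simulated data of these 69957 regions for Ikzf1-cko vs WT, ex vivo: 199 of 200 regions changed by 2 on the log2 scale were recovered, with 8 false calls. These changes were larger than any called at the locus. The simulated spread was the same for all regions, and no difference in background was simulated. Recovery and false calls near the fold threshold, or with such a background, were thus not tested. Alternatives used limma 3.58.1 and DESeq2 1.42.0. Exons, introns and start sites are from GENCODE vM1. Named regions were those at annotated start sites or exons, the 3 highest in ex vivo WT, and up to 4 called per direction and comparison. Regions given with values outside this rule were named after those values were seen. Some cell type markers are not reported here. Regions, lists and tests were chosen with earlier results of these data known.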

Additional observations from a re-analysis of the deposited data

Results flagged for a closer look

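The response of OCR_16488 to stimulation differed between the genotypes by the test of the interaction itself. The interaction was 0.62 on the log2 scale (Benjamini-Hochberg adjusted p = 0.00663 in edgeR), from a response of -1.23 in WT and -0.60 in Ikzf1-cko. It passed the FDR threshold and not the fold threshold. Over leaving out each library in turn it was 0.51 to 0.76, with adjusted p up to 0.0355, and under the loess normalization it was 0.39 with an adjusted p of 0.0685. Weak regions had more signal in WT stimulated libraries than in the other groups (a median of 10.1 FPKM against 4.48 to 5.93), and the part of this in the difference was not tested.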

How the results depend on the processing

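The number of called regions kept within 1.5 times its value under 15 of 20 alternatives for Ikzf1-cko vs WT ex vivo, 19 of 21 for stimulation of WT, 16 of 21 for stimulation of Ikzf1-cko, 17 of 20 for Ikzf1-cko vs WT stimulated and 20 of 20 for the interaction. For Ikzf1-cko vs WT ex vivo (2 called), loess normalization gave 1, limma 0, the filter of 3.6 CPM in all 12 libraries 0 and no filter 5. For stimulation of WT (4), loess gave 1 and limma 2. For stimulation of Ikzf1-cko (2), TMM, limma and the filter in all 12 libraries gave 1 each. For stimulated Ikzf1-cko vs WT (1), loess gave 2 and the filter in all 12 libraries 0. The filter in all 12 libraries leaves 20 of the 37 regions, without OCR_16480 and OCR_16496, and no filter tests all 37, adding OCR_16466, OCR_16467 and OCR_16500 ex vivo; the cause of the other differences was not tested. Leaving out each library in turn gave 1 to 2, 3 to 6, 1 to 3, 1 to 2 and 0 called regions in the 5 comparisons, in the order above. The count changed by more than 1.5 times without replicate 2 of WT ex vivo (1 in place of 2), replicate 2 of Ikzf1-cko ex vivo or replicate 3 of Ikzf1-cko stimulated (1 in place of 2), and replicate 2 of WT stimulated (2 in place of 1).

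Of 889 values of single regions over the alternatives, 858 kept their direction and their side of the FDR and fold thresholds as a pair, 18 fell short of the pair, 6 passed it and 7 changed sign. On the FDR alone, 21 of the 39 region-and-comparison values past it stayed past it under every alternative and 18 lost it at least once, 16 of them with every library kept. Those that changed sign were values near 0 that were never called. OCR_16469 in Ikzf1-cko vs WT ex vivo was -0.105 under loess and -0.0446 to 0.0427 over the libraries left out in turn, with -0.0446, -0.0215 and -0.0112 in those that changed sign. OCR_16488 in the same comparison was -0.0738 under loess and -0.0102 to 0.181 over the libraries left out. OCR_16469 after stimulation of WT was 0.0806 under loess. By FDR alone, the regions past the threshold numbered 4 to 12, 8 to 13, 3 to 12, 6 to 9 and 0 to 3 over the alternatives that keep every library. TMM scaling moved the median of all regions in Ikzf1-cko vs WT ex vivo from -0.13 to -0.02, and that of the 30 regions from -0.08 to 0.04.

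Deviations from group means of libraries with the same number and genotype correlated at -0.345 to 0.214, over 0.1 in 1 of 6 pairs. Pairs with different numbers, within or between genotypes, correlated at -0.377 to 0.402, over 0.1 in 11 of 36 pairs. With 3 libraries per group, these values cannot tell whether libraries of the same number came from the same animals. With the replicate block the called regions numbered 2, 4, 2, 1 and 0 in the 5 comparisons, and with a block within genotype 3 after stimulation of WT, 2 after stimulation of Ikzf1-cko and 0 for the interaction. 3 libraries per group and 4808916 to 15355521 fragments limit what can be detected at weak regions.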
